A study of Arabidopsis thaliana with 27 samples.

Results

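The nuclear genes that encode the light-harvesting antenna and the nuclear-coded subunits of photosystems I and II were followed in Arabidopsis thaliana seedlings moved to a warmer temperature. The genes were taken by gene ID: 6 LHCA and 14 LHCB antenna genes, 12 genes for photosystem I subunits D to O and 9 genes for photosystem II subunits O to Y. These are 41 of the 33557 genes counted in each of 27 RNA-seq libraries. All 41 passed the filter on low counts in every comparison. By locus tag, 41 of 41 matched the RefSeq annotation.

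The seedlings were the wild-type accession Col-0 and carried no transgene or mutation per the labels. Those of the 17 °C experiments grew for 10 days in long days, and the shift was made at ZT1 (1 h after lights on). In the first experiment seedlings stayed at 17 °C or moved to 27 °C, with 2 libraries per group at 15 min, 1 h and 4 h and 1 library at 0 min. In the second they stayed at 17 °C or moved to 37 °C, and in the third they stayed at 22 °C or moved to 27 °C, with 1 library per group at the same times and 1 unshifted library at 0 min in each. The sources used here do not say how the 22 °C seedlings were grown. Whole seedlings were ground, so in these bulk samples fewer green cells and less RNA per cell cannot be told apart.

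Chlorophyll a/b proteins of the antenna capture light and pass the energy to the reaction centres of the photosystems. LHCA proteins surround photosystem I, LHCB1 to LHCB3 form the trimers of the main photosystem II antenna (LHCII), and LHCB4 to LHCB6 are single proteins between the trimers and the photosystem II core. The core reaction centre proteins are coded in the chloroplast, while the genes described here are nuclear, are abundant in green tissue and are known for light- and clock-dependent transcript levels.

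The libraries held 5.79 to 30.7 M counts, and the 41 genes together took 3.54% to 8.38% of the nuclear counts. The lowest count of any of them in any library was 61 (LHCB4.3), and that of any other gene was 441 (LHCA6). Counting error thus weighed more on LHCB4.3 than on the other genes. Its size beside the spread between libraries was not tested for LHCB4.3. Chloroplast genes took 0.202% to 6.45% of counts, with the highest shares in the libraries numbered 1 at 1 h of the first experiment (5.43% at 17 °C and 6.45% at 27 °C). In all 6 pairs of duplicates the library numbered 1 had the higher share. The gap was smallest at 27 °C after 4 h, with 0.433% against 0.374%. The 27 °C duplicates at 4 h stood apart in the antenna and photosystem genes. In TMM-scaled counts the library numbered 1 was lower than the library numbered 2 for 41 of 41 genes, with a median log2 difference of -1.05. Its summed level was 59535 against 118389 TPM (the deposited unit of level, scaled by gene length and library). In the other 5 pairs of duplicates the median difference ran from -0.17 to 0.52. There number 1 was higher for 41 (27 °C) and 40 (17 °C) of 41 genes at 1 h and for 36 at 4 h (17 °C). At 15 min it was higher for 16 (27 °C) and 1 (17 °C). The 27 °C pair at 4 h thus stood apart by the size of its difference. Its direction was uniform, but so was that of the 27 °C pair at 1 h, where number 1 was the higher. Summed root markers (12 genes) ranged from 429 to 2944 TPM, and of the 12 only IRT1 and NRT2.1 were listed at 0 in a library, in 1 library each.

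These genes were among the most abundant transcripts of the seedlings. Ranked by mean TPM over the 27 libraries, 31 of the 41 stood among the top 50 of all genes and 38 among the top 200. LHCB1.3 (AT1G29930), a gene of the LHCII trimer, led them with a mean of 4849 ± 1154 TPM (SD, n = 27). It was above the next gene, LHCB1.5 (AT2G34420), in 26 of 27 libraries. The order after that was close: LHCB1.5 averaged 2849 TPM and LHCB1.1 2830 TPM, yet LHCB1.5 was the higher of the pair in only 10 of 27 libraries. At the other end were LHCA5 (AT1G45474) with 284 ± 50.2 TPM, LHCA6 (AT1G19150) with 172 ± 27.8 TPM and LHCB4.3 (AT2G40100) with 57.7 ± 26.1 TPM (SD, n = 27). LHCA5 and LHCA6 are minor antenna proteins that join photosystem I to the NADH dehydrogenase-like complex, and LHCB4.3 is a diverged copy of LHCB4. Each of these 3 was below the gene ranked above it in 27 of 27 libraries.

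Several genes lie next to their copies, in the files' TAIR10 coordinates. LHCB1.2 (chromosome 1, 10472280 to 10473299), LHCB1.1 (10474784 to 10475959) and LHCB1.3 (10478005 to 10479048) are neighbours on chromosome 1. LHCB1.5 and LHCB1.4 lie side by side on chromosome 2 (14522524 to 14523568 and 14524756 to 14525763). LHCB2.2 (1799234 to 1800392) and LHCB2.1 (1823240 to 1824425) share that chromosome. In RefSeq transcripts, stretches of 100 bases identical to a copy covered 1.51% to 4.44% of the windows of the LHCB1 genes, 9.87% of LHCB2.1 and 12.4% of LHCB2.2. None was found in the other genes. Reads from such stretches could be given to either copy, so single LHCB1, LHCB2.1 and LHCB2.2 values are less certain than their sums.

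The promoters of LHCB1.3 and LHCB4.3 are shown, the first as the gene with the highest mean level and the second as the gene with the largest log2 fold change at 37 °C over 3 times. Each line gives the 250 bases before the transcript start in RefSeq (TAIR10.1), plus strand, at chr1:10477635-10477884 and chr2:16745378-16745627. Capitals mark matches to 6 short motifs.
LHCB1.3: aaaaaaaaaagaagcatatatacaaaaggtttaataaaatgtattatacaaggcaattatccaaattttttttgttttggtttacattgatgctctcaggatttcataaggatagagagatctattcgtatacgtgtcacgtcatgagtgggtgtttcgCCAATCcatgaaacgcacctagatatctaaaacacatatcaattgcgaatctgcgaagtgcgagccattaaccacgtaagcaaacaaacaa
LHCB4.3: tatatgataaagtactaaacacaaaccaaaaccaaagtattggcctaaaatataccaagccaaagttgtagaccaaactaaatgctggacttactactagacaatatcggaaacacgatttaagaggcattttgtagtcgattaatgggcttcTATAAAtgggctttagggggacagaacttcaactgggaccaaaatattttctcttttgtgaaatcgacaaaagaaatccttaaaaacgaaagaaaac

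The LHCB1.3 window holds a CCAATC box, the type bound by GLK factors, 91 bases before the start. The LHCB4.3 window holds a TATAAA box 97 bases before the start. Over both strands, from 250 bases before to 50 after the start, the G-box CACGTG was present in 14 of 41 windows (34.15%) and in 7.68% of all 27443 gene windows. The I-box GATAAG was present in 17 of 41 (41.5%, all genes 14.7%) and CCAATC in 15 of 41 (36.6%, all genes 12.3%). The evening element core AATATCT (5 of 41, 12.2%, all genes 11.5%), the heat shock element GAANNTTC (2 of 41, 4.88%, all genes 11.6%) and TATAAA (20 of 41, 48.8%, all genes 52.1%) were also searched. No motif contains another. LHCA6 and LHCB4.3 held only TATAAA, and LHCA5 held TATAAA and the evening element core. A match is a description of letters and not of a bound site.

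In unshifted seedlings most of these genes rose during the morning. At 4 h against 15 min, in a fit over the 15 unshifted libraries with a term for the experiment, 30 of 41 were higher and 2 lower at an adjusted p under 0.05 (edgeR quasi-likelihood test, Benjamini-Hochberg over all genes). Among all 21712 genes tested, 12% were called higher and 13.7% lower. The median log2 fold change was 0.54 for the 41 genes and -0.01 for all genes tested. The 30 higher genes were higher at 4 h in each of the 3 experiments, and LHCB4.3 and LHCA6 were lower in each.

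**Figure D1:**
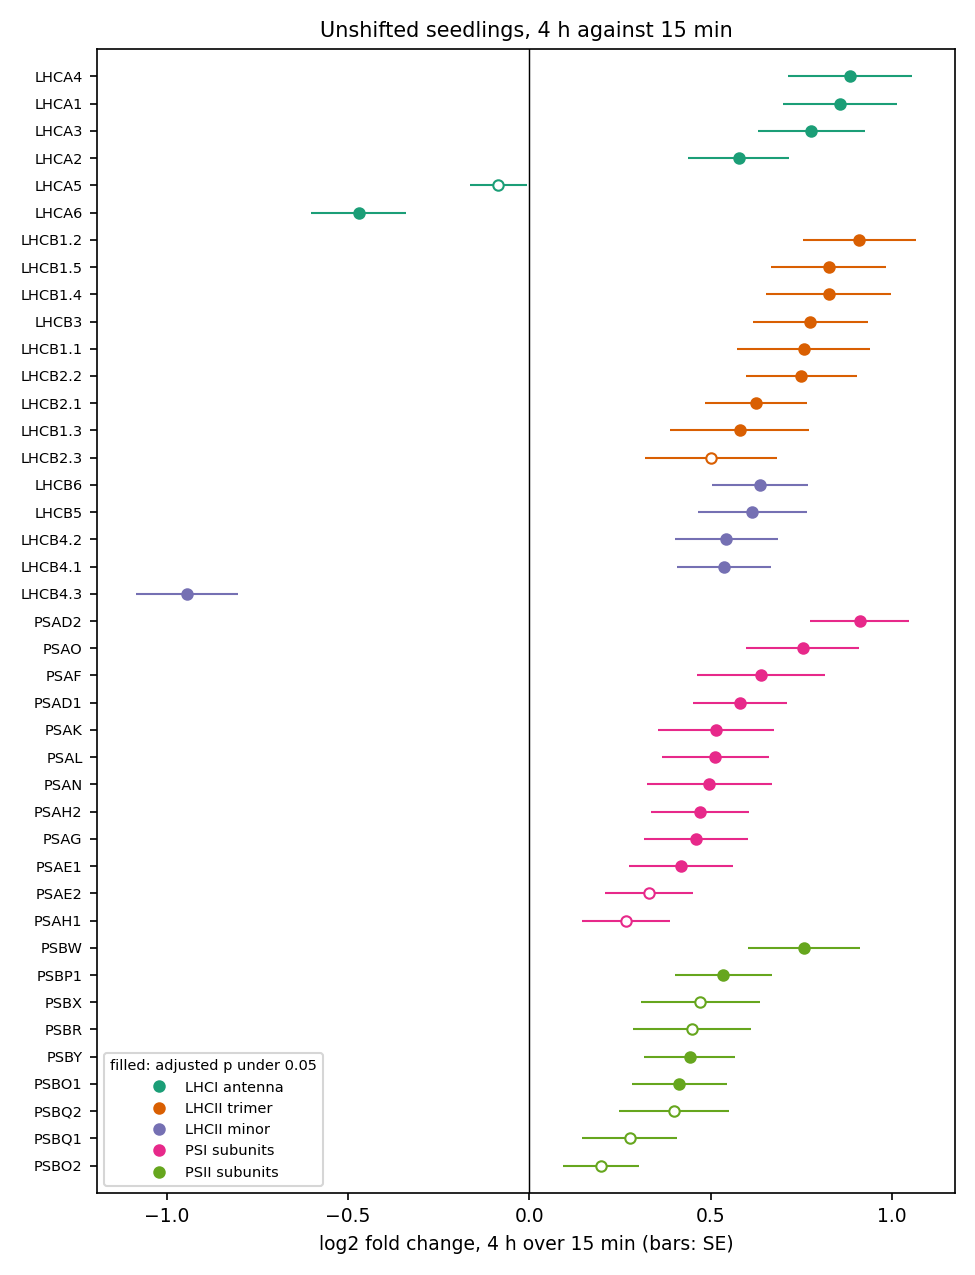
Log2 fold change of each gene (points, bars SE) in unshifted seedlings at 4 h over 15 min, by gene group; filled points passed an adjusted p under 0.05. The trimer genes lie between 0.50 and 0.91, while LHCB4.3 (-0.94) and LHCA6 (-0.47) lie on the other side of 0.

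The antenna of photosystem I split into its abundant and its minor genes. LHCA4 (AT3G47470), part of the photosystem I antenna belt, was at 1662 and 1846 TPM at 15 min and at 3970 and 3063 TPM at 4 h in the 17 °C libraries of the first experiment. It went from 1659 to 2678 TPM in the second experiment and from 2398 to 3533 TPM in the third. Its 4 h values were thus above its 15 min values in every experiment, and the fitted log2 fold change was 0.88 ± 0.17 (SE, adjusted p = 0.00198, edgeR). LHCA1 (0.86), LHCA3 (0.78) and LHCA2 (0.58) also rose.

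LHCA6 was at 209 and 192 TPM at 15 min and at 121 and 189 TPM at 4 h in the first experiment. The pairs did not overlap in TPM, but 192 and 189 TPM were close. As a share of nuclear counts the library numbered 2 did not fall, with 2722 of 21.2 M at 15 min and 2296 of 17.5 M at 4 h. LHCA6 went from 168 to 124 TPM in the second experiment and from 212 to 108 TPM in the third. Its log2 fold change was -0.47 ± 0.13 (SE, adjusted p = 0.017, edgeR), and this call was lost without the second (adjusted p = 0.0911) or the third experiment (adjusted p = 0.149). LHCA5 was at -0.09 (adjusted p = 0.469), so 4 of the 6 LHCA genes rose and 1 fell.

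Of the 9 trimer genes, 8 rose. LHCB1.3 had 2934 and 4141 TPM at 15 min and 5459 and 5378 TPM at 4 h in the first experiment. It had 3872 and 4255 TPM in the second and 5715 and 7499 TPM in the third. The 4 h level was above the 15 min level within each experiment but not across them, since the 22 °C library at 15 min was above all 3 of the 17 °C libraries at 4 h. The log2 fold change was 0.58 ± 0.19 (SE, adjusted p = 0.0403, edgeR), and this call was lost when the libraries of any of the 3 experiments were left out. LHCB1.5 (0.83), LHCB1.4 (0.82), LHCB3 (0.78), LHCB1.1 (0.76), LHCB2.2 (0.75) and LHCB2.1 (0.62) also rose. LHCB1.2 (AT1G29910) had the largest rise of the group, at 0.91 ± 0.16 (adjusted p = 0.000798, edgeR), and LHCB2.3 at 0.50 did not pass (adjusted p = 0.0604). In the third experiment LHCB2.3 was lower at 4 h, with a log2 ratio of -0.20, against 0.84 and 0.61 in the first and second.

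The LHCB4 copies went opposite ways. LHCB4.1 rose by 0.54 and LHCB4.2 by 0.54 on the log2 scale, as did LHCB5 (0.61) and LHCB6 (0.63). LHCB4.3 was at 85.2 and 92.4 TPM at 15 min and at 28.3 and 58.9 TPM at 4 h in the first experiment. It went from 55.0 to 35.4 TPM in the second and from 51.1 to 19.8 TPM in the third. Every 4 h library was below every 15 min library of its experiment, and LHCB4.3 fell by 0.94 ± 0.14 on the log2 scale (SE, adjusted p = 0.000298, edgeR). The TPM ratio of LHCB4.1 to LHCB4.3 in the unshifted libraries had a median of 19.98 at 15 min and of 53.3 at 4 h.

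Among photosystem I subunits, 10 of 12 rose. PSAD2 (AT1G03130), a copy of the stromal subunit where ferredoxin docks, was at 426 and 476 TPM at 15 min and at 867 and 899 TPM at 4 h in the first experiment. It went from 485 to 874 TPM in the second and from 614 to 948 TPM in the third. Every 4 h library was above every 15 min library across the 3 experiments. PSAD2 rose by 0.91 ± 0.14 (SE, adjusted p = 0.000323, edgeR), and its copy PSAD1 by 0.58 ± 0.13. The PSAD1 to PSAD2 ratio of TPM had a median of 2.39 at 15 min and of 1.80 at 4 h. PSAO (0.75) and PSAL (0.51), on the side where LHCII docks, rose, as did PSAF (0.64) and PSAN (0.50), on the plastocyanin side, and PSAK (0.51) and PSAG (0.46), on the antenna side. PSAE2 (0.33) and PSAH1 (0.27) did not pass, while their copies PSAE1 (0.42) and PSAH2 (0.47) did.

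Photosystem II subunits had the lowest median of the 5 groups, 0.44, with 4 of 9 called higher. PSBW (0.76), a small membrane subunit, was the highest, followed by PSBP1 (0.53), a lumenal protein of the oxygen-evolving complex. PSBY (0.44) and PSBO1 (0.41) also passed. PSBO1 and PSBO2 code for the same manganese-stabilising protein of that complex, and PSBO2 was at 0.20 (adjusted p = 0.194). The lumenal PSBQ1 (0.28) and PSBQ2 (0.40), PSBR (0.45) and PSBX (0.47) did not pass.

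The number of genes called higher depended on the first experiment: without its libraries 9 were called, against 25 without the second and 27 without the third. The 9 were LHCA1, LHCA3, LHCA4, LHCB1.2, LHCB1.5, LHCB6, PSAD2, PSAO and PSBW, and they were called under each of these omissions, as was LHCB4.3. The 32 genes called were also called with DESeq2, which called 37. Within experiments the median log2 ratio of 4 h to 15 min was 0.78, 0.41 and 0.32. At the same times root markers summed to 1304 to 2306 TPM at 4 h and 1056 to 2203 TPM at 15 min, with 3 of 12 higher (NRT2.1, EXPA7 and CASP1). Their part in the result was not tested.

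At earlier times the calls were few. At 15 min against 0 min, 0 of 41 passed in either direction (all genes 1.65% higher and 0.0368% lower), none had an unadjusted p under 0.05, and DESeq2 called 0. The median was -0.05. At 1 h against 15 min, 0 of 41 passed (all genes 1.1% higher and 1.17% lower), although 22 had an unadjusted p under 0.05 and the median was 0.33. LHCB2.2 (0.56 ± 0.15, adjusted p = 0.0823), PSAD2 (0.55 ± 0.14, adjusted p = 0.056) and LHCB1.2 (0.49 ± 0.15, adjusted p = 0.143) were highest in edgeR. These are the 3 genes that DESeq2 called. LHCB4.3 (-0.08), LHCA5 (-0.06) and LHCA6 (-0.01) were lowest.

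Other genes of photosynthesis moved in both directions, and the counts of each list stand beside 12% higher and 13.7% lower over all genes. Of 13 genes for electron transport and the ATP synthase none was called at 4 h (median 0.10), 1 had an unadjusted p under 0.05 and DESeq2 called 1 lower. Of 17 chlorophyll synthesis genes 3 rose and 1 fell (median -0.01), with the protochlorophyllide oxidoreductases PORA (1.82) and PORB (0.73) highest and GUN4, an activator of magnesium chelatase, at -0.55. Of 7 proteases of photosystem II repair 3 fell, FTSH8 (-0.74), FTSH1 (-0.49) and FTSH5 (-0.42). Of 6 regulators 4 fell: the GATA factors CGA1 (-2.51) and GNC (-1.13), the light-signalling factor HY5 (-1.42) and GLK1 (-0.82). Of 10 photoprotection and antenna-like genes 3 fell, ELIP1 (-2.07), ELIP2 (-1.46) and LHCB7 (-0.90), and NPQ1, the violaxanthin de-epoxidase, rose by 0.75. In chlorophyll breakdown HCAR (-0.73) and SGR1 (-0.70) fell and PPH (0.26) rose, and in antenna insertion and phosphorylation the kinase STN8 fell by 0.32. The calls of PPH and STN8 were lost with nuclear totals.

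**Figure D2:**
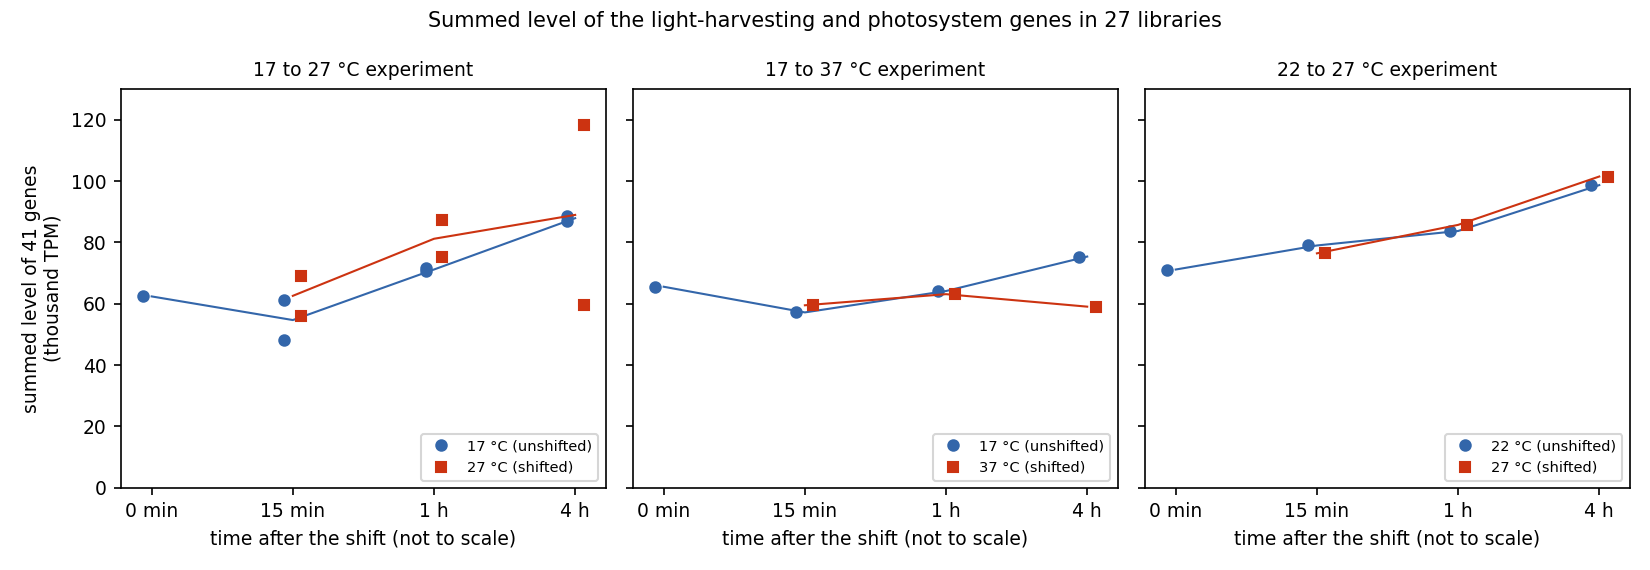
Summed level of the 41 genes in TPM (axis in 1000 TPM) in every library against time after the shift, for the 3 experiments; circles are unshifted and squares shifted libraries, and lines join means. The 27 °C duplicates at 4 h lie at 59535 and 118389 TPM, and the 37 °C libraries stay between 59056 and 63124 TPM.

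Unshifted seedlings of the 22 °C experiment held more of these transcripts than those of the first 17 °C experiment. At matched times 27 of 41 were higher and 1 lower (all genes 8% higher and 7.32% lower), with a median of 0.51 against -0.02 for all genes. LHCB1.5 (0.93 ± 0.14, adjusted p = 0.00132), PSAD1 (0.75 ± 0.11, adjusted p = 0.00135) and LHCB6 (0.75 ± 0.12, adjusted p = 0.0016) were highest, in edgeR. By group, 10 of 12 photosystem I subunits, 7 of 9 photosystem II subunits and 6 of 9 trimer genes were higher, against 2 of 6 LHCA genes. LHCB4.3 was again the exception, lower by a log2 fold change of -0.65 ± 0.13 (adjusted p = 0.006, edgeR). Scaling to nuclear totals moved the median of all genes to -0.18 and called 23 higher and 2 lower, LHCB4.3 and LHCA5. Growth temperature and experiment cannot be told apart here. Root markers summed to 2182 to 2944 TPM in the 22 °C libraries against 886 to 1773 TPM. Without PYK10 the sums overlapped, at 223 to 393 TPM against 180 to 455 TPM. The part of the root markers was not tested. The controls of both 17 °C experiments differed in 0 of 41 genes (all genes 0.613% higher and 0.967% lower), with a median of -0.06, 2 genes at an unadjusted p under 0.05 and 1 (LHCB4.3, -0.40) called by DESeq2.

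The move from 17 to 27 °C left no call among the 41 genes. Over 15 min, 1 h and 4 h together, 0 were higher and 0 lower (all genes 0.909% higher and 0.587% lower), 1 had an unadjusted p under 0.05, and DESeq2 and the fit with a replicate block also called 0. Yet 40 of 41 fitted values were above 0, with a median of 0.26 against -0.01 for all genes. Genes measured in the same libraries move together, so this count is not 40 separate observations. The highest values were LHCB1.5 (0.46 ± 0.26, adjusted p = 0.378), LHCB6 (0.43 ± 0.27, adjusted p = 0.432) and PSAD2 (0.39 ± 0.17, adjusted p = 0.264) in edgeR. The lowest were LHCA5 (-0.07 ± 0.16), LHCB2.3 (0.02 ± 0.21) and LHCB1.1 (0.04 ± 0.27). Medians by group were 0.22 for LHCA, 0.18 for the trimer, 0.30 for the minor antenna, 0.28 for photosystem I and 0.30 for photosystem II.

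**Figure D3:**
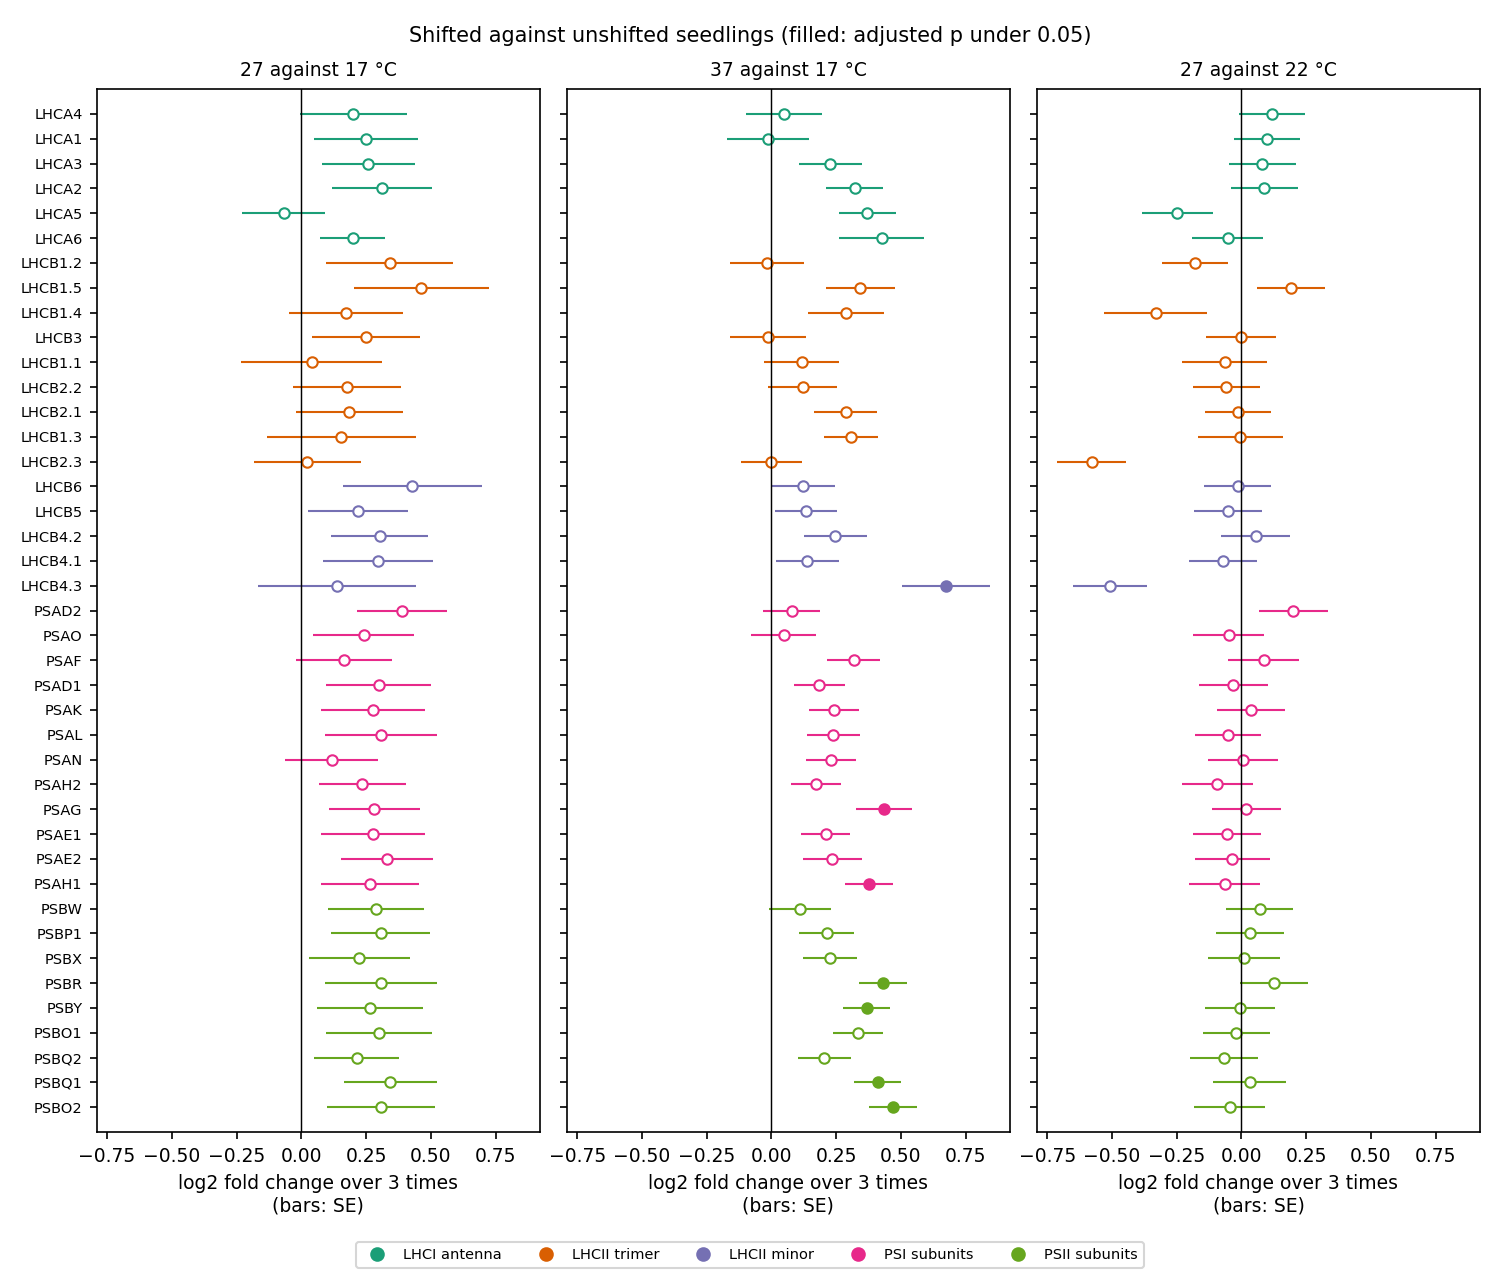
Log2 fold change over 3 times (points, bars SE) of each gene after the 3 moves; filled points passed an adjusted p under 0.05. At 27 against 17 °C no point is filled and 40 of 41 lie above 0, at 37 °C 7 are filled, and at 27 against 22 °C LHCB2.3 and LHCB4.3 lie lowest.

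By time, the values at 27 °C were above those at 17 °C at first and split at 4 h. At 15 min 41 of 41 genes were above 0 with a median of 0.41, and 0 were called (all genes 0.213% higher and 0.00463% lower; none had an unadjusted p under 0.05). At 1 h 41 of 41 were again above 0 with a median of 0.41 and 0 called (all genes 0.449% higher and 0.393% lower; 1 had an unadjusted p under 0.05). At 4 h 13 of 41 were above 0, with a median of -0.03 and 0 called (all genes 0.0278% higher and 0.00463% lower; none had an unadjusted p under 0.05). DESeq2 called 0 at each time. The 27 °C pair at 4 h, which stood apart, also entered the spread used at 15 min and 1 h. The highest value at 15 min was LHCB1.3 (0.63 ± 0.48, SE), so changes of this size could not be resolved. The 4 h median was -0.65 without the 27 °C library numbered 2 and 0.28 without the library numbered 1.

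PSAD2 and LHCB1.3 show both sides. PSAD2 was at 678 and 561 TPM at 17 °C and at 878 and 992 TPM at 27 °C after 1 h, with no overlap. Its log2 fold change was 0.81 ± 0.27 (SE, adjusted p = 0.185, edgeR), and with a replicate block within each time it was called at 0.81 ± 0.21 (adjusted p = 0.0454). LHCB1.3 at 4 h was at 5459 and 5378 TPM at 17 °C and at 2170 and 6840 TPM at 27 °C, so the 27 °C libraries lay on either side of the 17 °C pair. Between same-numbered libraries, the median log2 ratio of the 41 genes at 4 h was -0.86 for number 1 (1 of 41 above 0) and 0.56 for number 2 (39 of 41 above 0). LHCA6 was the gene above 0 in 6 of 6 pairs, and 38 genes were above 0 in 5 of 6. Between 15 min and 4 h the effect of the move differed for 0 of 41 genes (all genes 0% in either direction; 0 of the 41 had an unadjusted p under 0.05 and DESeq2 called 0), with a median of -0.47, which was -0.05 without the 27 °C 4 h library numbered 1. Root markers summed to 725 to 1539 TPM at 27 °C and 886 to 1773 TPM at 17 °C, and 0 of 12 were called.

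**Figure D4:**
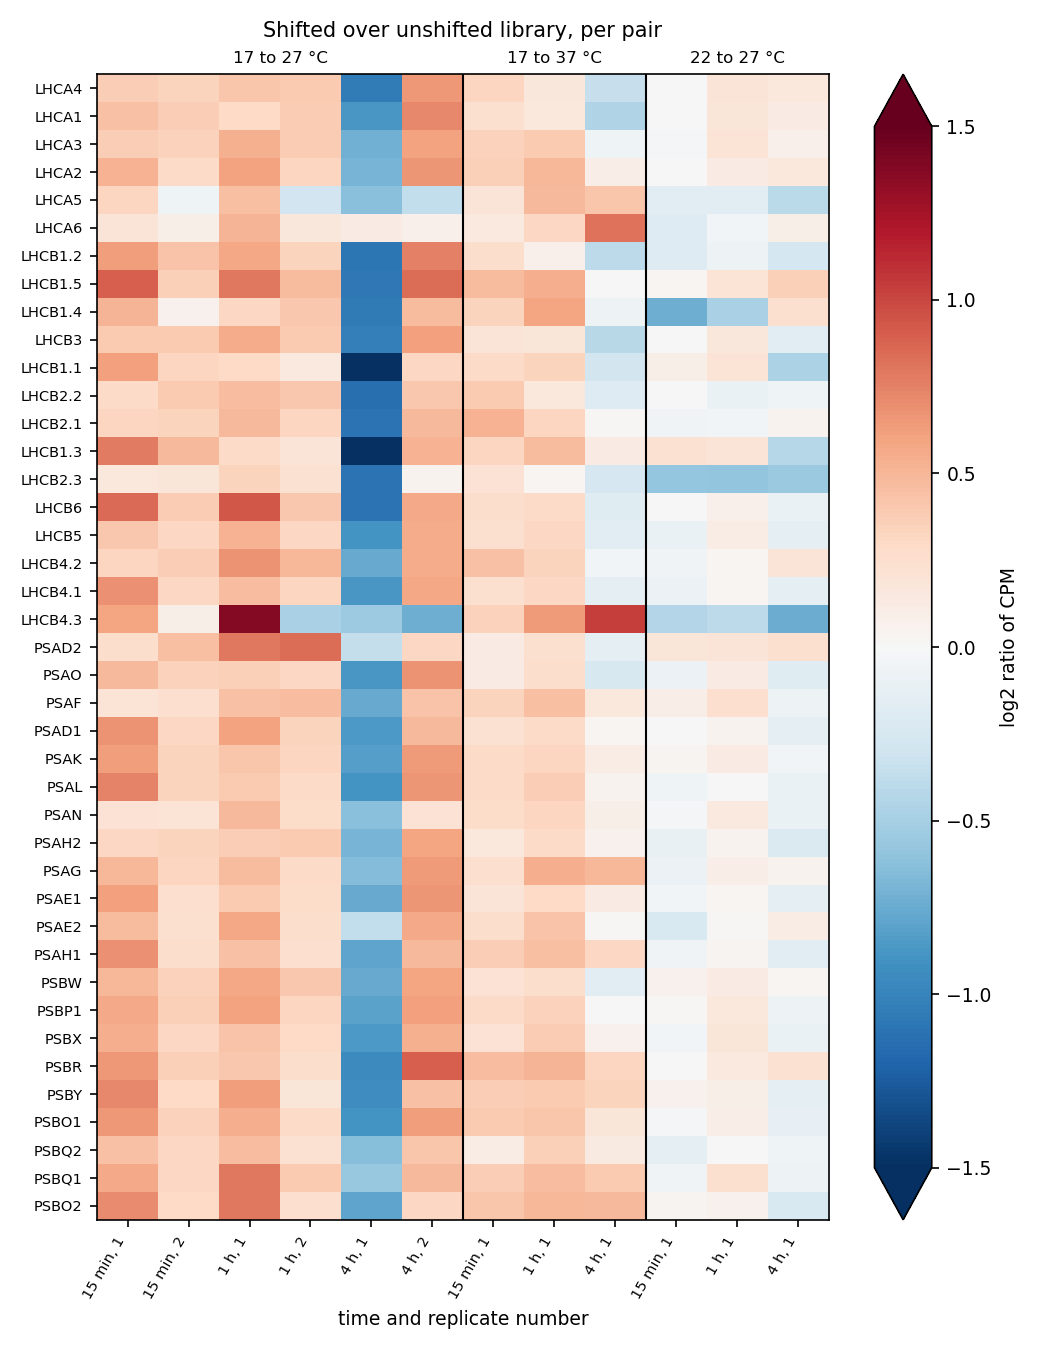
Log2 ratio of counts scaled by library size and TMM (CPM), shifted over unshifted, for each gene (rows) and each pair of libraries with the same number and time (columns). At 4 h the first 17 to 27 °C pair is below 0 for 40 of 41 genes and the second above 0 for 39. In the 17 to 37 °C columns, which have no duplicates, 24 of 41 genes are above 0 at all 3 times. The same count was not made over all genes. It holds for the TMM scale only, since with nuclear totals the median of the 41 genes at 37 °C after 4 h was below 0.

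Of the other lists, 1 gene was called after the move to 27 °C, the ferredoxin FD1 (1.02 ± 0.22, adjusted p = 0.0477, edgeR), 1 of 13 in electron transport (median 0.18, DESeq2 2). No gene of chlorophyll synthesis (17 genes, median 0.03), chlorophyll breakdown (10, 0.01), antenna insertion (9, 0.11), photoprotection (10, -0.11), repair proteases (7, 0.05) or the regulators (6, -0.16) passed. In these lists 3, 1, 0, 0, 0 and 0 genes had an unadjusted p under 0.05, and DESeq2 called 0.

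At 37 °C a small set of the genes was higher than at 17 °C with TMM scaling, and none was called with scaling to nuclear totals. Over 3 times 7 of 41 were higher and 0 lower (all genes 9.79% higher and 11% lower), with a median of 0.23 against -0.0036 for all genes tested. DESeq2 called 5 of the 7, without PSAH1 and PSBY. The 7 were 4 of 9 photosystem II subunits, 2 of 12 photosystem I subunits (PSAG and PSAH1), 1 of 5 minor antenna genes (LHCB4.3), and none of the 6 LHCA and 9 trimer genes.

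PSBO2 (AT3G50820) was at 975, 1021 and 1009 TPM at 15 min, 1 h and 4 h at 17 °C and at 1090, 1109 and 1122 TPM at 37 °C (both on the TPM scale). All 3 shifted libraries lay above all 3 unshifted ones, and the log2 fold change was 0.47 ± 0.09 (SE, adjusted p = 0.0282, edgeR). PSBO1, the more abundant copy, had 0.34 ± 0.10 (adjusted p = 0.0626), and the PSBO1 to PSBO2 ratio of TPM ran from 1.74 to 1.85 at 37 °C and from 1.88 to 2.11 in the 17 °C libraries of the same times. PSBR (AT1G79040), a small lumenal protein, was at 0.43 ± 0.09 (adjusted p = 0.0348), PSBQ1 (AT4G21280) at 0.41 ± 0.09 (adjusted p = 0.0366) and PSBY (AT1G67740) at 0.37 ± 0.09 (adjusted p = 0.0445).

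PSAG (AT1G55670), a membrane subunit on the antenna side of photosystem I, was at 1753, 1897 and 1998 TPM at 17 °C and at 1792, 2179 and 2211 TPM at 37 °C. The 15 min library at 37 °C was within the range of the 17 °C libraries in TPM, while on the tested scale (counts scaled by library size and TMM) the groups did not overlap. Its log2 fold change was 0.44 ± 0.11 (SE, adjusted p = 0.0451, edgeR). PSAH1 (AT3G16140), a copy of the subunit at which LHCII docks, was at 0.38 ± 0.09 (adjusted p = 0.0458), and its copy PSAH2 at 0.17 (adjusted p = 0.238). The PSAH2 to PSAH1 ratio of TPM ran from 0.946 to 1.04 at 37 °C and from 1.05 to 1.25 in the 17 °C libraries of the same times.

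LHCB4.3 had the largest change at 37 °C. It was at 55.0, 64.4 and 35.4 TPM at 17 °C and at 59.4, 77.2 and 57.9 TPM at 37 °C. The levels at each time were higher at 37 °C, but the 15 min and 4 h libraries at 37 °C were below the 1 h library at 17 °C on this scale. On the tested scale the groups did not overlap, and the log2 fold change was 0.67 ± 0.17 (SE, adjusted p = 0.0472, edgeR). Summing the LHCB4 copies gave 0.20 ± 0.12 (adjusted p = 0.261), because LHCB4.3 is a small part of that sum. Among the sums PSBO passed (0.38 ± 0.09, adjusted p = 0.0417), while PSAH (0.25, adjusted p = 0.112) and PSBQ (0.30, adjusted p = 0.0716) did not.

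The lowest values at 37 °C were in the antenna: LHCB1.2 (-0.02), LHCB3 (-0.01), LHCA1 (-0.01) and LHCB2.3 (0.00). LHCA1 (AT3G54890) was at 1499, 1832 and 2330 TPM at 17 °C and at 1501, 1571 and 1338 TPM at 37 °C. It was thus highest at 4 h in the unshifted libraries and lowest at 4 h at 37 °C, with values at 37 °C over those at 17 °C of 0.24, 0.16 and -0.45 (log2) at the 3 times. Over the 41 genes the medians at 15 min, 1 h and 4 h were 0.28, 0.34 and 0.03, with 41, 41 and 24 genes above 0. At each time 0 were called in a fit over all 27 libraries, and 0, 0 and 1 had an unadjusted p under 0.05 (DESeq2 0 at each). The spread in that fit came from the duplicates of the first experiment, among them the 27 °C pair at 4 h that stood apart. At 15 min the highest value, LHCB2.1, was 0.52 ± 0.49 (SE), so changes of this size could not be resolved. All genes were called in 1.47% higher and 0.98% lower at 15 min, 2.18% and 2.65% at 1 h, and 6.16% and 9.11% at 4 h.

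At 4 h the 3 highest were LHCB4.3 (1.04 ± 0.66, adjusted p = 0.319), LHCA6 (0.81 ± 0.31, adjusted p = 0.109) and PSAG (0.50 ± 0.43, adjusted p = 0.466) in edgeR, and the 3 lowest LHCA1 (-0.45 ± 0.50), LHCB3 (-0.42 ± 0.49) and LHCB1.2 (-0.39 ± 0.62). LHCA6 was at 124 TPM at 17 °C and 168 TPM at 37 °C. The 17 °C library at 4 h enters both these ratios and the fall of LHCB4.3 and LHCA6 with time in unshifted seedlings, so the values at 4 h are not separate from that fall. Whether the 37 °C values at 4 h differed from those at 15 min was tested after these values were seen. The difference was called for 0 of 41 (all genes 0.117% higher and 0.0809% lower; none had an unadjusted p under 0.05 and DESeq2 called 0). Its median was -0.25, with LHCB4.3 (0.69 ± 0.92) and LHCA6 (0.67 ± 0.44) highest and LHCA1 (-0.70 ± 0.71), LHCA4 (-0.66 ± 0.70) and LHCB1.2 (-0.65 ± 0.87) lowest.

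The calls at 37 °C depended on the scale and on single times. With libraries scaled to their nuclear totals the median of all genes was -0.35 and that of the 41 genes -0.12, and 0 of 41 were called. The values above are therefore relative to that shift. Leaving out the 15 min libraries left PSAG and LHCB4.3, leaving out 4 h left PSBR and called LHCB1.5, and leaving out 1 h left none. Root markers summed to 429 to 925 TPM at 37 °C and 1903 to 2203 TPM at 17 °C, and 6 of 12 fell (EXPA18, EXPA7, PRP3, PYK10, COBL9 and NRT2.1) with none higher. Their part in the result was not tested.

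**Figure D5:**
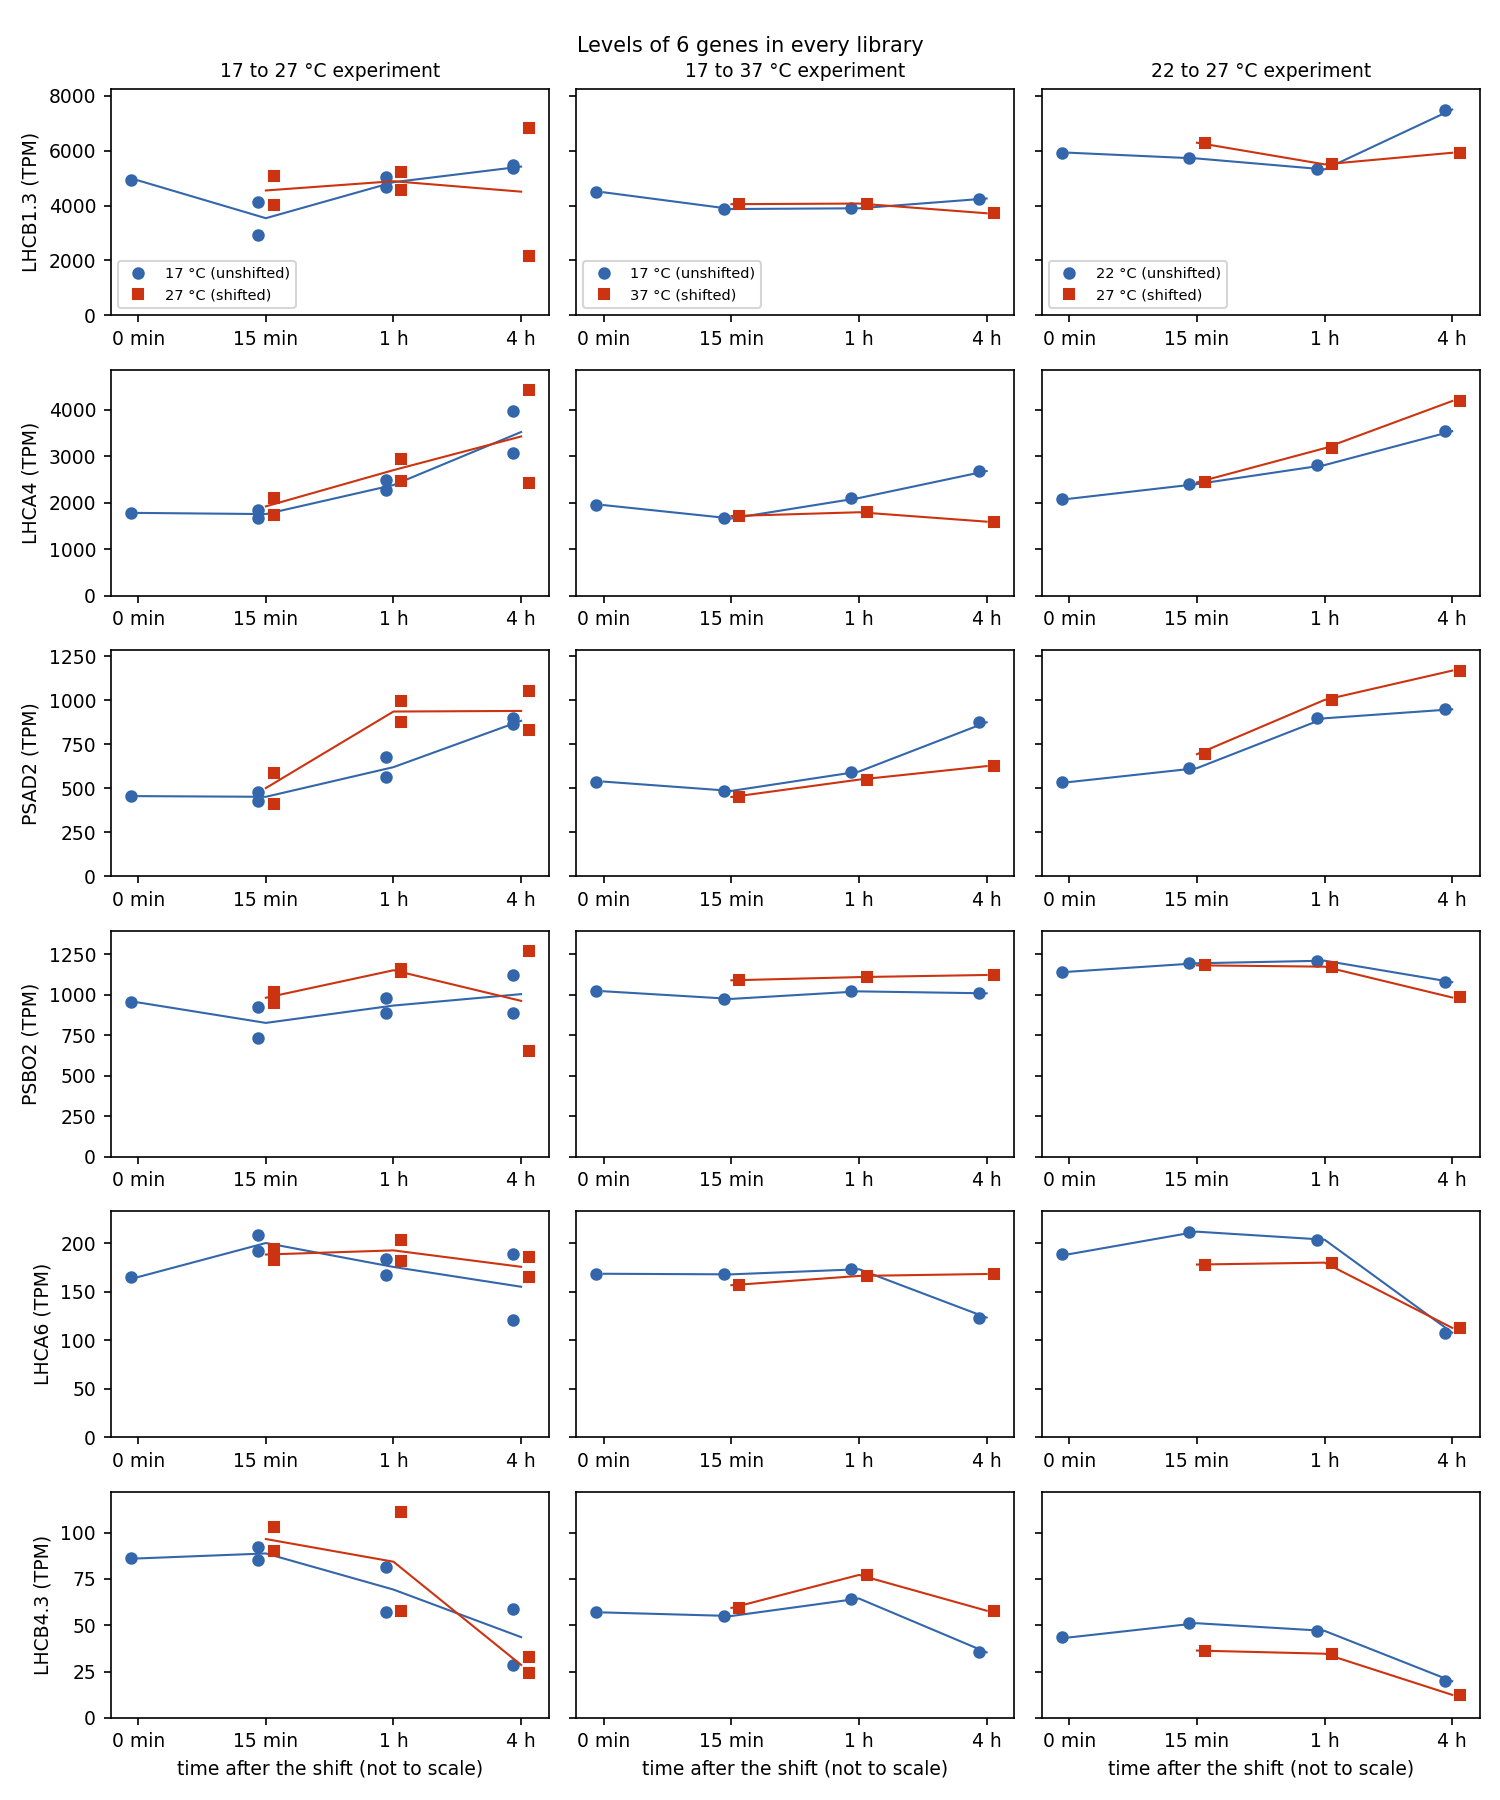
Level in TPM of LHCB1.3, LHCA4, PSAD2, PSBO2, LHCA6 and LHCB4.3 in every library against time after the shift, for the 3 experiments; circles are unshifted and squares shifted libraries, and lines join means. LHCA4 reaches 2678 TPM at 17 °C and 1591 TPM at 37 °C after 4 h, and the mean of LHCB4.3 is lowest at 4 h in all unshifted series.

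Genes around the photosystems were also called at 37 °C, beside 9.79% higher and 11% lower over all genes. Of 13 electron transport genes 5 rose (median 0.35), among them FD1 (1.04 ± 0.14, adjusted p = 0.0126), FD2 (0.50), ATPG (0.47) and PETC (0.45), the Rieske protein. Of 7 repair proteases 4 rose (median 0.56): FTSH8 (1.03), FTSH1 (0.89), FTSH5 (0.69) and FTSH2 (0.56), subunits of the thylakoid protease. Of 9 genes of antenna insertion and phosphorylation 3 rose (median 0.35), the kinases STN8 (0.76) and STN7 (0.39) and the insertase ALB3 (0.37). Of 17 chlorophyll synthesis genes 4 rose, CRD1 (0.53), CHLH (0.51), CHLG (0.46) and CHLP (0.42), and 1 fell, CAO (-0.66), which makes chlorophyll b. HCAR (0.60), which converts chlorophyll b towards chlorophyll a, was the 1 of 10 breakdown genes called. ELIP1 rose by 2.66 ± 0.47 (adjusted p = 0.0253, edgeR), 1 of 10 photoprotection genes. Of the 6 regulators GNC (1.41) and HY5 (1.26) rose and GUN1 (-0.93), a plastid signalling protein, fell. With nuclear totals, which moved the median of all genes by -0.35, the calls of FD1 (0.70), FTSH8 (0.68), FTSH1 (0.54), ELIP1 (2.32), GNC (1.07), CAO (-1.01) and GUN1 (-1.27) remained and the other calls in this paragraph were lost.

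The difference between both moves was tested directly, with each experiment's own controls. It was called for 0 of the 41 genes (all genes 7.06% higher and 10.5% lower at 37 °C than at 27 °C), with a median of -0.03, none at an unadjusted p under 0.05 and 0 in DESeq2. LHCB4.3 (0.54 ± 0.45, adjusted p = 0.451) and LHCA5 (0.44 ± 0.24, adjusted p = 0.22) were highest and LHCB1.2 (-0.36 ± 0.37, adjusted p = 0.541) lowest, in edgeR, and the LHCB4.3 value was -0.05 without the 4 h libraries. The calls at 37 °C are therefore not shown to differ from the response at 27 °C, where the SE values of the same genes were larger. Among the other lists the difference was called for 5 of 17 chlorophyll synthesis genes, 3 of 7 repair proteases and 4 of 6 regulators.

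After the move from 22 to 27 °C the photosystem genes stayed near their controls. Over 3 times 0 of 41 were called (all genes 0.28% higher and 0.0661% lower), with a median of -0.01 and 2 genes at an unadjusted p under 0.05. DESeq2 called 1, LHCB2.3 (-0.57 ± 0.17, adjusted p = 0.033). LHCB2.3 (AT3G27690), a trimer gene, was at 1010, 1213 and 841 TPM at 22 °C and at 670, 792 and 628 TPM at 27 °C after 15 min, 1 h and 4 h. Every shifted library was below every unshifted library of these 3 times, while the 0 min library at 22 °C, at 642 TPM, was within the shifted range. The fit over 3 times in edgeR gave -0.58 ± 0.13 (SE, adjusted p = 0.121). Without the 4 h libraries LHCB2.3 (-0.58, adjusted p = 0.0476) and LHCB1.4 (-0.60, adjusted p = 0.0497) were called.

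LHCB4.3 was at 51.1, 47.0 and 19.8 TPM at 22 °C and at 36.3, 34.6 and 12.4 TPM at 27 °C. It was lower at 27 °C at each time, with a log2 fold change of -0.51 ± 0.14 (SE, adjusted p = 0.168, edgeR). PSAD2 (0.20), LHCB1.5 (0.19) and PSBR (0.12) were highest. At the single times 0 of 41 were called (0 of all genes at 15 min and 1 h, 0.0045% higher and 0.0135% lower at 4 h), none had an unadjusted p under 0.05 and DESeq2 called 0. Medians were -0.03, 0.10 and -0.10. The spread of these tests came from the duplicates of the first experiment, and LHCB1.4, lowest at 15 min, was at -0.73 ± 0.56 (SE). None of the other 7 lists of photosynthesis genes held a call in edgeR, with 0 to 2 genes a list at an unadjusted p under 0.05, and DESeq2 called 1 regulator lower. Of the root markers NRT2.1 and FRO2 fell, with sums of 1536 to 2549 TPM against 2182 to 2516 TPM. Without PYK10 the sums did not overlap, at 157 to 174 TPM at 27 °C and 223 to 286 TPM at 22 °C. The part of the root markers was not tested.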

How the data were processed

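Per the labels, total RNA from 30 mg of ground seedlings was sequenced as paired reads of 100 bases, with a stranded and an unstranded kit at 2 centres; which of them served a given library is not stated. The submitters' processing notes name TopHat, Trimmomatic, FastQC and Picard and the TAIR10 build, and no counting program, so reads of antisense neighbours cannot be told apart. The deposited raw counts are whole numbers per gene. The deposited FPKM and TPM are the authors' length-scaled values (TPM equals rescaled FPKM within 5.1e-11); TPM gave levels, and counts gave every test.

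Counts were filtered with filterByExpr, scaled by TMM and tested with the two-sided quasi-likelihood test of edgeR 4.0.16 (robust, R 4.3.3), adjusted by Benjamini-Hochberg over all genes tested, with a threshold of 0.05. The SE is the log2 fold change divided by the square root of F. Moves over 3 times had a term per time; in the 6-library fits, 2 residual degrees of freedom remained, and single times of the 37 °C and 22 °C experiments took their spread from the duplicates of the other experiment. DESeq2 1.42.0, other scalings and left-out libraries were alternatives. The scripts were tested on simulated data.

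Nothing in the labels says that duplicates came from separate cultures, so p-values measure the spread between these libraries. The 6-library fits over 3 times held no duplicates. Their residual spread, behind the calls at 37 °C, was the variation of the effect between the 3 times. Same-numbered libraries of a time deviated together (r = 0.411 to 0.55 in 3 pairs), so numbers were taken to pair libraries within a time. The margin was small, since between times r ran from -0.0684 to 0.381 in 12 pairs. The main fits at 27 against 17 °C held no term for this pairing, and a block within each time was an alternative. Over all genes that block called 138 higher and 55 lower at 15 min, in place of 46 and 1. At 1 h it called 701 and 947 in place of 97 and 85, and at 4 h 222 and 324 in place of 6 and 1. At 4 h the 41 genes deviated in opposite directions. Their median log2 difference, number 1 minus number 2, was 0.36 at 17 °C and -1.05 at 27 °C. The 0 min library of the first experiment is numbered 1 in its title and second in its characteristics. The genes, lists and tests were chosen with earlier results of these data known. All 41 genes could be named; of each other list, up to 4 genes with the largest called changes. Sequences came from RefSeq (TAIR10.1).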

Additional observations from a re-analysis of the deposited data

Results flagged for a closer look

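The effects of the moves to 37 and 27 °C from 17 °C differed, by the tested difference (log2, 37 °C effect minus 27 °C effect, adjusted p under 0.05 in edgeR, each experiment with its own controls), for genes of the other lists. In chlorophyll synthesis PORA (2.95), HEMA1 (1.15), GUN4 (1.03) and CHLH (0.76) were among these, and HCAR (0.62) in chlorophyll breakdown. ELIP1 differed by 3.20 in photoprotection. The repair proteases FTSH8 (0.98), FTSH1 (0.89) and FTSH5 (0.70) differed in the same direction, as did the regulators CGA1 (2.00), GNC (1.65) and HY5 (1.06), with GUN1 (-0.78) in the other. Root markers differed downward, with EXPA18 (-3.18), EXPA7 (-3.08), PRP3 (-2.21) and PYK10 (-1.71). The experiment and the temperature cannot be told apart in this difference.

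In TMM-scaled counts, LHCB4.3 and LHCA5 were above their controls at all 3 times at 37 °C (against 17 °C) and below them at all 3 times at 27 °C (against 22 °C), where the log2 fold changes over 3 times were -0.51 and -0.25. The difference between these 2 moves was not tested.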

How the results depend on the processing

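Values are log2 medians or numbers of the 41 genes called. With nuclear totals in place of TMM, 37 °C over 3 times called 0 higher (median -0.12), its medians at 1 h and 4 h were -0.06 and -0.37, 1 h against 15 min unshifted called 2 higher, and the 22 °C against 17 °C controls called 2 lower. With DESeq2, 27 against 22 °C called 1 lower, 1 h against 15 min unshifted 3 higher, and the controls of the 37 °C experiment against those of the first 1 lower. For 37 °C, 2, 0 and 2 were called higher without the 15 min, 1 h and 4 h libraries. For 27 against 22 °C without 4 h, 2 were called lower. For 4 h against 15 min unshifted, 9 were called higher without the first experiment, and 1 lower without the 37 °C experiment and likewise without the 22 °C experiment. The replicate block within each time called 1 gene higher at 27 °C after 1 h and changed no other call. Leaving out single libraries of the first experiment gave 0 to 1 genes higher at 27 °C after 1 h (1, LHCB4.3, without the 27 °C library numbered 2), medians of -0.65 to 0.28 at 4 h, and -1.07 to -0.05 for 4 h minus 15 min. The medians at 37 °C over 3 times and at 1 h and 4 h thus changed sign with nuclear totals, and that at 27 °C after 4 h with single libraries. No gene named as called in the main fits changed sign under the alternatives run. LHCB4.3 at 27 °C after 1 h, called only without 1 library, had log2 ratios of 1.37 and -0.49 between same-numbered libraries. Of the summary values under an alternative, 375 were classed as the same, 8 gained calls, 7 lost calls and 6 medians moved. These classes rest on size and are not a statement about sign. A median counted as the same if it shifted by less than 0.34, the pooled SD between duplicates. That is more than the main medians at 27 and 37 °C against 17 °C over 3 times. Numbers of calls counted as the same if equal, 0 and 0 included, or within a set ratio. The comparison of the 37 °C effect at 4 h and 15 min, the fits without the 17 °C 1 h library numbered 1 and those without both 4 h libraries numbered 1 (27 °C median 0.44, 0 called) were added after seeing the data. Over all genes tested, nuclear totals changed the split of higher and lower calls from 2118 and 2374 to 1108 and 5282 at 37 °C, from 1737 and 1590 to 928 and 4347 for the 22 °C against 17 °C controls, and from 1560 and 2329 to 732 and 3998 for the difference between the moves. DESeq2 called 607 and 569 in place of 192 and 124 at 27 against 17 °C (263 and 217 with a replicate block, 280 and 271 with the block within each time), and 214 and 140 in place of 55 and 13 at 27 against 22 °C. The median of the 41 genes at 27 against 17 °C was 0.27 with the replicate block and 0.23 with the block within each time. The causes were not tested. With 1 library per group in the 37 °C and 22 °C experiments, and 2 residual degrees of freedom, small changes could not be resolved.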
